A study of Homo sapiens with 14 samples.

Results

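The comparison was of 22Rv1 cells given SEL120-34A, a compound that blocks the kinases CDK8 and CDK19 of the Mediator complex, against 22Rv1 cells given its solvent, dimethylsulfoxide (DMSO). The 6 libraries of this line, 3 per arm, belonged to a series of 14 libraries that also held LNCaP (3 per arm) and PC3 (1 per arm). SEL120-34A was given at 1.5 µM, and RNA was taken on day 3 in both arms. The genes described are those whose counts over the 6 libraries passed edgeR's low-count filter, 6003 of the 62703 genes in the table, while 44264 genes had no count in any of the 6. 22Rv1 is an established human prostate cancer line grown from a xenograft that relapsed after castration. It expresses the androgen receptor and resists enzalutamide. Both arms were the parental line in medium with serum, and a single line cannot stand for other tumors of its kind. The study's statistics section describes its experiments in general as done in biological replicates, while the labels of these libraries do not say whether each was a separate culture. If they were not, the p-values measure only the spread between these libraries, which may be technical.

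Mediator is a large complex that links transcription factors at enhancers to RNA polymerase II at promoters. CDK8 or its paralog CDK19, with cyclin C, MED12 and MED13, forms a module that binds Mediator reversibly and phosphorylates transcription factors and parts of the transcription machinery. The module is known both to restrain and to promote transcription, depending on the gene, and is studied in prostate cancer for its bearing on androgen receptor activity and growth.

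The SEL120-34A libraries were shallower (246063 to 368778 counts) than the DMSO libraries (476455 to 777207 counts), so 3 counts, taken as the floor, equaled 8.13 to 12.2 CPM (counts scaled to 1000000 per library) with SEL120-34A and 3.86 to 6.30 CPM with DMSO. These floors use library totals over all genes, while gene levels below are scaled by TMM over the tested genes, so the scales are not the same. The share of counts from mitochondrially encoded genes was 7.60% to 9.82% with DMSO and 9.52% to 13.1% with SEL120-34A. The luminal markers KRT8, KRT18, EPCAM and HOXB13 had 51 to 516 counts in every library. The basal markers KRT5, KRT14 and TP63 and the neuroendocrine markers CHGA and NCAM1 had 0 counts in all 6 libraries, as did all 5 endothelial markers, and no fibroblast or leukocyte marker exceeded 2 counts in a library. Of the neuroendocrine markers, ENO2 and SCG3 passed the filter and neither passed the test. DMSO replicate 2 and SEL120-34A replicate 2 stood at opposite ends of a trend with transcript length, described below with the ribosomal and mitochondrial genes.

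After SEL120-34A, 233 genes were higher (3.88% of those tested) and 142 were lower (2.37%), 375 in all (6.25%), by edgeR's quasi-likelihood test with Benjamini-Hochberg adjustment at 0.05. At an unadjusted p under 0.05 there were 1207 genes. The libraries of the arms did not overlap for 1492 genes (24.9% of those tested), among them 358 of the 375 called genes. Of the called genes, 79 rose and 49 fell by at least 1 on the log2 scale. The median log2 fold change over all tested genes was -0.02. Scaling by library totals in place of TMM gave 129 higher and 210 lower, with a median of -0.13 over all genes, so the balance of rises and falls depended on the scaling. Changes below are given relative to the TMM scaling. DESeq2 called 163 genes and limma on the deposited log2 values 27. Of 130 called genes described here, 14 kept their call under every alternative, namely AQP3, SFN, DDIT4, RGS2, BTG1, EXTL2, ALB, HSD17B11, SELENOM, CD9, ITGB5, AP3S1, TEX264 and ALDH3A2. With each library left out in turn, 103 of the 375 calls held in all 6 fits. Omitting a library lowered the total most for SEL120-34A replicate 2 (154 calls) and replicate 1 (178), followed by DMSO replicate 3 (195) and replicate 1 (249).

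**Figure D1:**
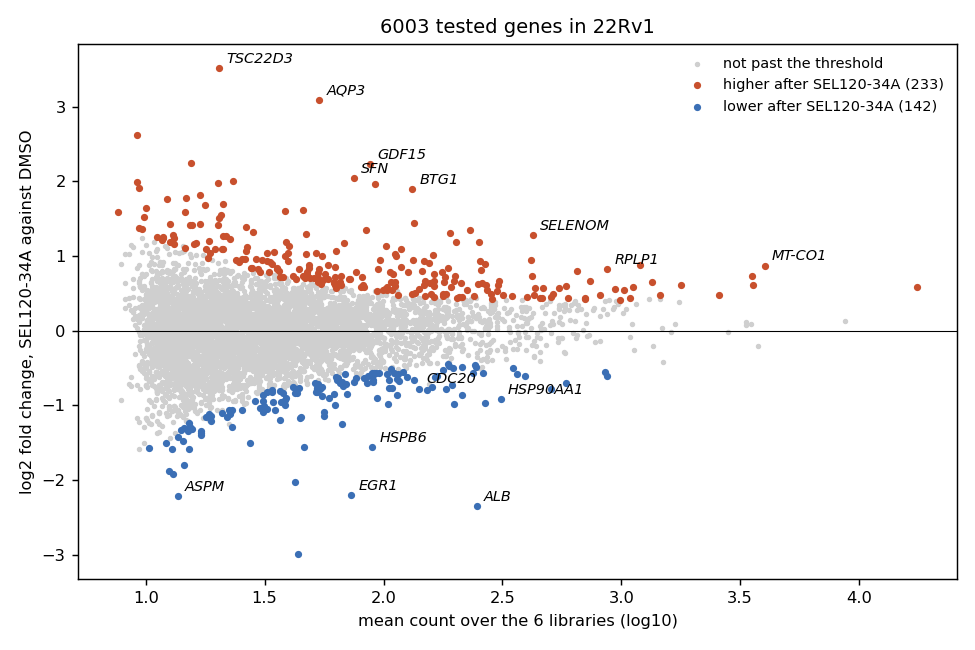
Log2 fold change (SEL120-34A over DMSO, y axis) of the 6003 tested genes in 22Rv1 against the log10 of the mean count over the 6 libraries (x axis), with genes past the threshold in color. The 233 higher and 142 lower genes lie on both sides of a median of -0.02, and the named genes at the edges include TSC22D3 at 3.51 and ALB at -2.35.

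The genes of the kinase module itself were measured at low counts. In CPM of the tested genes, scaled by TMM as in all gene levels below, CDK19 was at 30.2, 29.8 and 11.9 CPM in the DMSO libraries and 36, 33.2 and 21.9 CPM in the SEL120-34A libraries (log2 fold change 0.43, adjusted p = 0.629), and these ranges overlapped. CCNC, which encodes cyclin C, was at 153, 89.4 and 116 CPM with DMSO and 108, 104 and 147 CPM with SEL120-34A (log2 fold change 0.02, adjusted p = 0.965). CDK8, MED12 and MED13 did not pass the filter. CDK8 had 5, 10 and 8 counts with DMSO and 2, 1 and 3 counts with SEL120-34A. MED12 had 3, 12 and 16 against 3, 4 and 5 counts, and MED13 had 5, 16 and 20 against 4, 4 and 6 counts. In a fit of 18439 genes without the filter, their log2 fold changes were -0.99 ± 0.66, -0.41 ± 0.52 and -0.59 ± 0.47 SE, and none passed the test (adjusted p of 0.722, 0.776 and 0.775). Of the 16 tested core Mediator subunits, none passed the test, and their median log2 fold change was -0.13. A kinase inhibitor acts on protein activity, so these transcripts do not check the treatment.

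The largest rise among genes with a mean of at least 20 counts was that of TSC22D3, which encodes GILZ, a glucocorticoid-induced leucine zipper protein (ENSG00000157514.18, chrX:107713221-107777342, GRCh38). It was at 12.9, 14.9 and 6.58 CPM in the DMSO libraries and 99, 242 and 62.6 CPM in the SEL120-34A libraries, and its lowest treated library was more than 4 times its highest DMSO library (log2 fold change 3.51 ± 0.42 SE, adjusted p = 4.99e-07). These levels rest on 5 to 7 counts per DMSO library and 20 to 51 counts per SEL120-34A library. AQP3, a channel for water and glycerol in epithelia (ENSG00000165272.16, chr9:33441156-33447596), was at 32.3, 25.5 and 44.8 CPM in the DMSO libraries and 324, 394 and 219 CPM in the SEL120-34A libraries (log2 fold change 3.09 ± 0.23 SE, adjusted p = 1.08e-11). Both genes were named by rank among genes whose arms did not overlap, and SEL120-34A replicate 2 was the highest of the 6 libraries for each. RGS2, which shortens signaling through G protein-coupled receptors, was at 96.9, 123 and 111 CPM with DMSO and 402, 498 and 403 CPM with SEL120-34A (log2 fold change 1.96 ± 0.16 SE, adjusted p = 1.20e-10). BTG1, an antiproliferative cofactor of mRNA decay, was at 202, 153 and 138 CPM with DMSO and 669, 612 and 529 CPM with SEL120-34A (log2 fold change 1.89 ± 0.16 SE, adjusted p = 1.20e-10). RGS2 and BTG1 were named by the same rule, so the separation of their arms was a condition of the choice. DDIT4, a stress-induced inhibitor of mTORC1, was at 25.9, 31.9 and 25 CPM with DMSO and 108, 142 and 87.6 CPM with SEL120-34A (log2 fold change 2.0 ± 0.28 SE, adjusted p = 8.01e-06). TSC22D3 and DDIT4 were the 2 genes called among the 11 tested glucocorticoid-inducible genes (18.2%, against 6.25% of all tested genes). The median log2 fold change of that list was 0.15. FKBP5, another member of that list and a common readout of the androgen receptor, was at 64.6, 76.6 and 59.3 CPM with DMSO and 69, 94.8 and 109 CPM with SEL120-34A (log2 fold change 0.45, adjusted p = 0.299).

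Further rises of this size came from genes of varied function. FZD1, a Wnt receptor, had a log2 fold change of 1.70 (adjusted p = 0.000198). The small GTPase RAB17, which acts in epithelial membrane traffic, stood at 1.61 (adjusted p = 2.62e-05), the glycosyltransferase EXTL2 at 1.6 (adjusted p = 8.01e-06) and the hydrolase NUDT9 at 1.51 (adjusted p = 0.000956). HES6, a helix-loop-helix factor, was at 32.3, 23.4 and 31.6 CPM with DMSO and 102, 109 and 53.2 CPM with SEL120-34A (log2 fold change 1.54, adjusted p = 0.00143). It was the only called gene of 4 tested on the Notch list (25%, against 6.25% of all tested genes). CYP1A1, a target of the aryl hydrocarbon receptor, was at 32.3, 34 and 26.3 CPM with DMSO and 60.01, 94.8 and 93.8 CPM with SEL120-34A (log2 fold change 1.42, adjusted p = 0.00239). These 6 genes were named by rank among called genes whose arms did not overlap. The separation of their arms was thus a condition of the choice. CYSTM1 (1.44, adjusted p = 1.16e-07) and the zinc finger gene ZNF789 (1.38, adjusted p = 0.00234) complete the 15 largest rises together with GDF15 and SFN below.

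**Figure D2:**
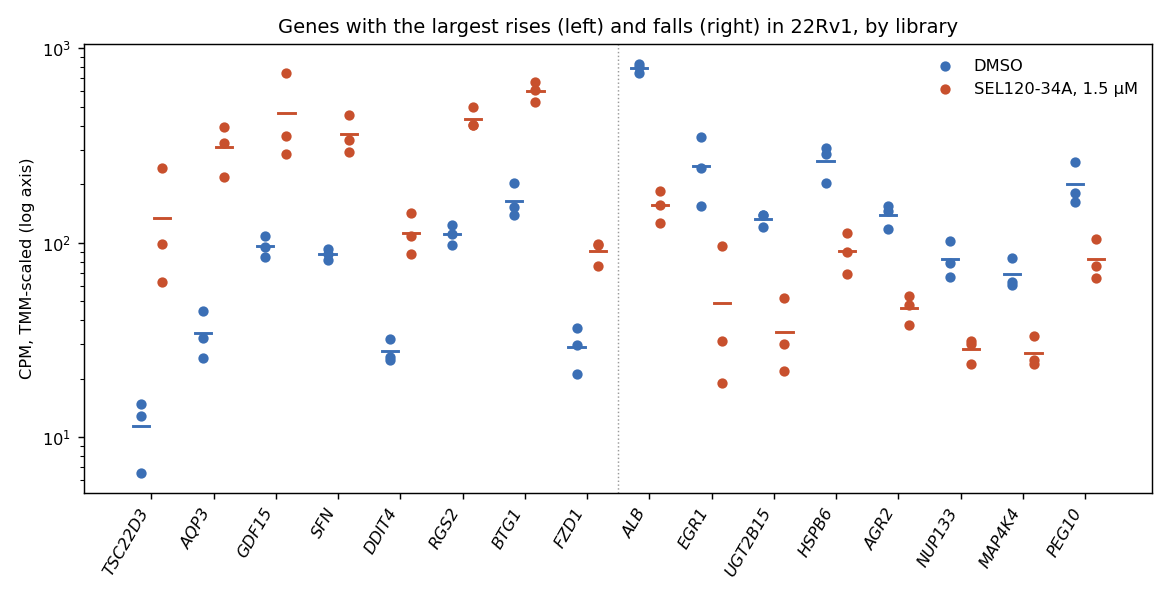
CPM per library (y axis, log scale) of the 8 genes that rose most and the 8 that fell most in 22Rv1 among called genes whose arms did not overlap and whose counts averaged 20 or more, with DMSO and SEL120-34A libraries as separate points (3 per arm) and the mean of each arm as a bar. By that choice, the 3 treated points of each gene lie wholly above or wholly below the 3 DMSO points.

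Of 28 tested p53 targets, 5 were higher (17.9%, against 3.88% of all tested genes), none was lower, and the median log2 fold change was 0.37, against -0.02 over all genes. GDF15, a stress-induced secreted cytokine, was at 94.8, 109 and 84.3 CPM with DMSO and 354, 749 and 285 CPM with SEL120-34A (log2 fold change 2.23 ± 0.23 SE, adjusted p = 3.10e-08). SFN, the 14-3-3 sigma protein that holds back entry into mitosis, was at 92.6, 87.2 and 81.6 CPM with DMSO and 339, 455 and 294 CPM with SEL120-34A (log2 fold change 2.04 ± 0.18 SE, adjusted p = 5.29e-10). RPS27L, a ribosomal protein paralog, was at 108, 106 and 122 CPM with DMSO and 243, 341 and 200.2 CPM with SEL120-34A (log2 fold change 1.17, adjusted p = 6.02e-05). Each of these 3 genes was higher in every treated library, which for GDF15 and SFN was a condition of their naming by rank. Each kept its call with any 1 library left out. The other 2 calls were of low-count genes. GADD45A was at 28, 8.51 and 19.8 CPM with DMSO and 72, 61.6 and 21.9 CPM with SEL120-34A, so the arms overlapped (log2 fold change 1.42, adjusted p = 0.0339), and the call was lost without DMSO replicate 2 (0.0713), DMSO replicate 3 (0.0877), SEL120-34A replicate 1 (0.335) or SEL120-34A replicate 2 (0.128). Values in parentheses after a library are adjusted p-values of the fit without it, here and below. PLK2 had a log2 fold change of 1.25 (adjusted p = 0.0469), and the call was lost without DMSO replicate 1 (0.120), DMSO replicate 3 (0.256), SEL120-34A replicate 1 (0.125), SEL120-34A replicate 2 (0.231) or SEL120-34A replicate 3 (0.0808). The 2 best known p53 targets did not pass. CDKN1A, the inhibitor p21, was at 23.7, 36.2 and 29 CPM with DMSO and 30.00, 61.6 and 53.2 CPM with SEL120-34A (log2 fold change 0.65, adjusted p = 0.291), and MDM2 was at 30.2, 34 and 26.3 CPM with DMSO and 27, 14.2 and 25 CPM with SEL120-34A (log2 fold change -0.36, adjusted p = 0.669). The arms overlapped for both CDKN1A and MDM2.

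Among genes that averaged 20 or more counts and whose arms did not overlap, the largest fall was that of ALB, the plasma protein albumin, which the liver secretes (ENSG00000163631.17, chr4:73397114-73421482). It was at 745, 825 and 803 CPM in the DMSO libraries and 126, 156 and 185 CPM in the SEL120-34A libraries (log2 fold change -2.35 ± 0.16 SE, adjusted p = 1.50e-12). The DMSO libraries differed from each other by little, and all treated libraries lay far below them. The mitochondrial pseudogene MTND1P23, named here after its values were seen, had a larger fitted fall (-3.00, adjusted p = 0.0213) that rested on 210 counts in DMSO replicate 2, against 26 and 8 in the other DMSO libraries and 4 to 7 in the treated ones. The promoter of ALB is shown because this gene is a textbook target of the liver factor HNF1. In it, as in the other promoters, the window ran from 250 bases before to 50 bases after the start of the RefSeq gene, and capitals mark the letters GTTAAT (the core of the HNF1 site), found 61 to 56 bases before the start.
ALB promoter, chr4:73404037-73404336 (GRCh38.p14, plus strand): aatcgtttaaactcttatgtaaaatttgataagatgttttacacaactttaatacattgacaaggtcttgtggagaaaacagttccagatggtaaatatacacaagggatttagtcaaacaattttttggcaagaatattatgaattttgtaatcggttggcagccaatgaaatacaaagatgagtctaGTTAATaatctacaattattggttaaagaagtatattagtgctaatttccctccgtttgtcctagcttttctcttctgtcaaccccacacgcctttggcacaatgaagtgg
These letters were in 6.89% of all 27305 promoters of the table, in 2.72% of the promoters of tested genes, in 7 of the 162 promoters of genes that rose (4.32%) and in 1 of the 117 of genes that fell. Of the 10 tested genes of the list of liver and gut secreted proteins and their regulators, 2 were higher and 3 were lower, with a median of -0.22. The shares were 20% and 30%, against 3.88% and 2.37% of all tested genes. AGR2, a disulfide isomerase secreted by mucous epithelia, was at 155, 117 and 145 CPM with DMSO and 48, 37.9 and 53.2 CPM with SEL120-34A (log2 fold change -1.55 ± 0.24 SE, adjusted p = 4.80e-05). MUC13, a transmembrane mucin, was at 19.4, 29.8 and 17.1 CPM with DMSO and 60.01, 94.8 and 78.2 CPM with SEL120-34A (log2 fold change 1.81, adjusted p = 0.000459). AGR2 and ALB thus fell while MUC13 rose, in each case with no overlap between the arms, a condition of naming for AGR2 and ALB. VIL1, which encodes villin of the brush border, was higher (0.74, adjusted p = 0.0281), and FOXA1, a pioneer factor of luminal prostate cells, was lower (-0.47, adjusted p = 0.0447). The call of VIL1 was lost without DMSO replicate 1 (0.0624), DMSO replicate 3 (0.170), SEL120-34A replicate 1 (0.0700) or SEL120-34A replicate 2 (0.0994), and that of FOXA1 was lost without DMSO replicate 1 (0.138), DMSO replicate 2 (0.0967), SEL120-34A replicate 1 (0.224), SEL120-34A replicate 2 (0.161) or SEL120-34A replicate 3 (0.0598).

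Steroid metabolism moved in both directions. UGT2B15, which conjugates androgens with glucuronic acid, was at 121, 138 and 139.6 CPM with DMSO and 30.00, 52.2 and 21.9 CPM with SEL120-34A (log2 fold change -2.02 ± 0.27 SE, adjusted p = 4.99e-06). This gene has close paralogs, so the assignment of its reads is uncertain. Among paralogs below the filter, UGT2B10 had 11, 18 and 30 counts with DMSO and 2, 1 and 0 counts with SEL120-34A. UGT2B11 had 3, 4 and 7 against 1, 2 and 2 counts, and UGT2B7, UGT2B17 and UGT2B28 had 0 to 2. These counts are not scaled for depth. HSD17B11, which oxidizes androgen metabolites, was at 71.1, 80.8 and 72.4 CPM with DMSO and 207, 175 and 163 CPM with SEL120-34A (log2 fold change 1.29 ± 0.20 SE, adjusted p = 3.99e-05). HSD17B4, a peroxisomal enzyme of fatty acid and steroid breakdown, fell (log2 fold change -0.99, adjusted p = 0.0106), a call lost without SEL120-34A replicate 1 (0.111) or SEL120-34A replicate 2 (0.0526). These were the 3 calls among 7 tested genes of the list (42.9%, against 6.25% of all tested genes), and UGT2B15 and HSD17B11 kept theirs with any 1 library left out.

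EGR1, an immediate early gene induced by serum and growth factors (ENSG00000120738.8, chr5:138465479-138469303), was at 351, 243 and 154 CPM in the DMSO libraries and 96, 19 and 31.3 CPM in the SEL120-34A libraries (log2 fold change -2.20 ± 0.31 SE, adjusted p = 9.89e-06). The DMSO libraries themselves spanned more than 2-fold, and the highest treated library lay under the lowest of them, as naming by rank required. The EGR1 promoter is known for its serum response elements, and capitals mark the CArG boxes, the letters bound by serum response factor (CC, 6 bases of A or T, GG), which lay 105 to 96 and 83 to 74 bases before the start.
EGR1 promoter, chr5:138465229-138465528 (GRCh38.p14, plus strand): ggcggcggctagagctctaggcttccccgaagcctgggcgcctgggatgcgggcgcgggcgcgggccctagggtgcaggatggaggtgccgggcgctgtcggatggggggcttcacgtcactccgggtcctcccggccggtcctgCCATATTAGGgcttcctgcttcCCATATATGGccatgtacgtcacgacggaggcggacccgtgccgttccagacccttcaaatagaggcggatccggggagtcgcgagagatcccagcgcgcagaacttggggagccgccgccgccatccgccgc
CArG boxes were in 1.28% of all promoters of the table, in 1.03% of the promoters of tested genes (49 of 4751), in 8 of the 162 promoters found for genes that rose and in 4 of the 117 found for genes that fell. EGR1 was not joined by its class. Of 25 tested immediate early and serum response genes it was the only 1 lower, BTG1 was the only 1 higher, and the median was 0.17. The share of that list called, 8%, was near the 6.25% of all tested genes. MYC, a growth-induced gene of that list whose protein drives ribosome production, was at 851, 1062 and 870.4 CPM with DMSO and 978, 1019 and 1132 CPM with SEL120-34A (log2 fold change 0.17, adjusted p = 0.506), and its arms overlapped.

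Androgen-regulated genes were called in both directions. Of 34 tested, 5 were higher (14.7%, against 3.88% of all tested genes) and 2 lower (5.88%, against 2.37%), with a median of 0.16. KLK4, a secreted protease of the kallikrein family, was at 287, 268 and 249 CPM with DMSO and 537, 564 and 432 CPM with SEL120-34A (log2 fold change 0.93 ± 0.14 SE, adjusted p = 4.63e-05). PMEPA1, a membrane protein that restrains TGF-beta signaling, was at 196, 202 and 146 CPM with DMSO and 345, 346 and 266 CPM with SEL120-34A (log2 fold change 0.83, adjusted p = 0.00156). IDI1, an enzyme of isoprenoid synthesis that is also on the cholesterol list, was at 297, 251 and 275 CPM with DMSO and 402, 607 and 447 CPM with SEL120-34A (log2 fold change 0.80, adjusted p = 0.000839). These 3 kept their calls with any 1 library left out. The call of TPD52 (1.00) was lost without SEL120-34A replicate 3 (0.0632), and the fall of ELL2 (-1.12) was lost without DMSO replicate 2 (0.175), SEL120-34A replicate 1 (0.176), SEL120-34A replicate 2 (0.0546) or SEL120-34A replicate 3 (0.165). KLK2, a kallikrein used as an androgen readout, was at 38.8, 29.8 and 34.2 CPM with DMSO and 15, 33.2 and 18.8 CPM with SEL120-34A (log2 fold change -0.70, adjusted p = 0.325). KLK3, which encodes prostate-specific antigen, had 7, 17 and 13 counts with DMSO and 7, 2 and 5 counts with SEL120-34A, and TMPRSS2 had 2, 6 and 3 against 10, 7 and 4 counts. Neither passed the filter. In the fit of 18439 genes without a filter, the log2 fold change was -0.48 ± 0.48 SE for KLK3 (adjusted p = 0.775) and 1.82 ± 0.56 SE for TMPRSS2 (adjusted p = 0.0633, unadjusted p = 0.00110).

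Genes of mitosis and G2/M were lower where they were called. Of 60 tested, 9 were lower and none higher (2.37% of all tested genes were lower), 42 had a negative and 18 a positive log2 fold change, and the median was -0.26. CDC20, which activates the anaphase-promoting complex (ENSG00000117399.14, chr1:43358981-43363203), was at 362, 355 and 421 CPM in the DMSO libraries and 210.0, 209 and 247 CPM in the SEL120-34A libraries (log2 fold change -0.77 ± 0.15 SE, adjusted p = 0.00130). ASPM, a spindle pole protein, was at 40.9, 53.2 and 39.5 CPM with DMSO and 12, 4.74 and 9.38 CPM with SEL120-34A (log2 fold change -2.22 ± 0.45 SE, adjusted p = 0.00190), which in the treated libraries was 1 to 4 counts. CCNB1, which encodes cyclin B1, was at 295, 236 and 280.5 CPM with DMSO and 177, 156 and 206 CPM with SEL120-34A (log2 fold change -0.57, adjusted p = 0.0344). CDC20, ASPM and CCNB1 were each lower in all treated libraries than in any DMSO library. The other calls were KPNA2 (-0.67), the kinesin KIF20A (-1.59), the kinase PLK1 (-0.77) and, named after their values were seen to complete the calls, the kinase AURKA (-0.79), the proliferation marker MKI67 (-1.43) and CKAP2 (-0.77). CDC20 and ASPM kept their calls with any 1 library left out. Removing a single library left the list with 4 calls (DMSO replicate 1), 2 calls (DMSO replicate 3), 4 calls (SEL120-34A replicate 1) or 3 calls (SEL120-34A replicate 2). As these were bulk libraries, fewer cells in mitosis and less RNA per cell cannot be told apart.

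Many mitotic promoters carry a cell cycle genes homology region (CHR), at which the DREAM and MuvB complexes bind. The promoter of CDC20 is shown as a case with 2 matches, with the CHR letters TTTGAA on either strand in capitals, 178 to 173 and 65 to 60 bases before the start.
CDC20 promoter, chr1:43358731-43359030 (GRCh38.p14, plus strand): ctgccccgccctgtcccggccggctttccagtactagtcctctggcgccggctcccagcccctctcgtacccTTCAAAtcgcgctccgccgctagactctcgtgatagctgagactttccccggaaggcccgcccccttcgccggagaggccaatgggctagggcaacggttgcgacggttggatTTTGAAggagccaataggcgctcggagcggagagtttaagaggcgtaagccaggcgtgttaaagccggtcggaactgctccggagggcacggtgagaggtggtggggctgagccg
CKS2, a cyclin-dependent kinase subunit gene of the same list, was not among its 9 calls and had a single match 29 to 24 bases before its start.
CKS2 promoter, chr9:89310945-89311244 (GRCh38.p14, plus strand): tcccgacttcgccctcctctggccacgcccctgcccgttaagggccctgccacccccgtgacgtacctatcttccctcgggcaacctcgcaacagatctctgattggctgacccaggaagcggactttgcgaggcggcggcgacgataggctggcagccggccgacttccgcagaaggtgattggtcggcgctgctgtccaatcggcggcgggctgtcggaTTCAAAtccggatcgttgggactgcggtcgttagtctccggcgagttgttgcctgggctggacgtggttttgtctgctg
No CHR letters were found in the window of CCNB1. The CHR was in 32 of 50 promoters found for the tested G2/M genes and in 5 of the 8 found for those that fell, so the falling members held it about as often as the list. Over all promoters in the table the share was 15.4%, over tested genes 8.25%, over genes that rose 8.02% (13 of 162) and over genes that fell 20.5% (24 of 117). These are descriptions of letters in a window, and promoters of 4751 of the 6000 distinct tested symbols were found. The other motifs searched, on both strands, were the CCAAT box (CCAAT), in 35.7% of all promoters, 38.6% of those of tested genes, 49.4% of those of genes that rose and 38.5% of those of genes that fell. In the same order, the E-box (CACGTG) was in 7.43%, 11.6%, 11.7% and 17.1%, the GC box (GGGCGG) in 44.6%, 74.6%, 76.5% and 75.2%, the androgen and glucocorticoid element core (AGAACA) in 14.9%, 7.87%, 9.88% and 8.55%, and the CRE core (TGACG) in 25.01%, 37.4%, 34.0% and 36.8%. The called genes come from the tested genes, whose shares for the GC box, AGAACA and TGACG lay within 4 percentage points of those of both called groups. The windows of TSC22D3 and AQP3 were searched for AGAACA and held no match. The SREBP element (TCACNCCAC) was in 1.15% of all promoters and 1.05% of those of tested genes, the ATF4 element (TGATGNAA) in 3.67% and 1.58%, and neither was in more than 3 promoters of either called group. A CArG box can contain the letters CCAAT.

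Of 48 tested genes of DNA replication and S phase, 2 were lower (4.17%, near the 2.37% of all tested genes), with a median of -0.07, and none of the 15 tested G1 cyclins, cyclin-dependent kinases and RB pathway genes passed the test. MCM4, a subunit of the replicative helicase, was at 233, 357 and 292 CPM with DMSO and 192, 80.6 and 153 CPM with SEL120-34A (log2 fold change -0.99, adjusted p = 0.00168). The call of RRM2, the small subunit of ribonucleotide reductase (-0.56), was lost without DMSO replicate 1 (0.114), DMSO replicate 3 (0.227), SEL120-34A replicate 1 (0.126), SEL120-34A replicate 2 (0.218) or SEL120-34A replicate 3 (0.0715). Among 72 tested MYC targets in ribosome biogenesis, 3 were lower (NOLC1, NCL and GNL3, from -0.81 to -0.57) and none higher, again 4.17% and near the 2.37% of all tested genes, with a median of -0.11. Each of these 3 calls was lost without SEL120-34A replicate 2, among other libraries, with adjusted p-values of 0.114, 0.263 and 0.192, and none of the 7 tested MYC network factors was called.

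Cytosolic and mitochondrial chaperones were lower where called. Of 31 tested, 6 were lower (19.4%, against 2.37% of all tested genes) and none higher, 22 had a negative and 9 a positive log2 fold change, with a median of -0.18. HSPB6, a small heat shock protein, was at 284, 202 and 307 CPM with DMSO and 69, 90.1 and 113 CPM with SEL120-34A (log2 fold change -1.56 ± 0.21 SE, adjusted p = 3.20e-06). HSP90AA1, the inducible cytosolic HSP90, was at 732, 1094 and 802 CPM with DMSO and 450.1, 403 and 525 CPM with SEL120-34A (log2 fold change -0.92, adjusted p = 0.000105). HSPA8, the constitutive HSC70, was at 1252, 1489 and 1839.5 CPM with DMSO and 915, 820.3 and 1079 CPM with SEL120-34A (log2 fold change -0.70, adjusted p = 0.00192). These 3 kept their calls with any 1 library left out and showed no overlap between the arms, which the naming of HSPB6 by rank required. HSP90AB1, HSPD1 and HSPA9 had log2 fold changes of -0.56, -0.61 and -0.46. All 3 lost their calls when DMSO replicate 3, SEL120-34A replicate 1 or SEL120-34A replicate 2 was left out, and the list then had 3 calls each time.

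The endoplasmic reticulum (ER) list split, with 4 higher and 4 lower of 43 tested. Each was 9.30%, against 3.88% higher and 2.37% lower over all tested genes. HSPA5, the ER chaperone BiP, was at 810.0, 853 and 632 CPM with DMSO and 423, 270.3 and 447 CPM with SEL120-34A (log2 fold change -0.97, adjusted p = 7.74e-05). PDIA4, a disulfide isomerase, was lower (log2 fold change -0.58, adjusted p = 0.00543), as were HSP90B1 (-0.61, lost without SEL120-34A replicate 1 (0.0738)) and CANX (-0.62, lost without SEL120-34A replicate 1 (0.0936) or SEL120-34A replicate 2 (0.0825)). The 4 that fell encode chaperones and folding enzymes of the ER. SELENOM, a selenoprotein of the ER, was at 676, 677 and 683 CPM with DMSO and 1575, 2025 and 1373 CPM with SEL120-34A (log2 fold change 1.28 ± 0.14 SE, adjusted p = 6.06e-08). SEC11A, a catalytic subunit of the signal peptidase, was at 401, 329.8 and 329 CPM with DMSO and 645, 616 and 482 CPM with SEL120-34A (log2 fold change 0.72, adjusted p = 0.00150). The signal peptidase subunits SPCS2 (0.78) and SEC11C (0.46) were also called higher. SPCS2 lost its call without DMSO replicate 3 (0.0534) or SEL120-34A replicate 2 (0.0690), and SEC11C lost it without any 1 of the 6 libraries, with adjusted p-values from 0.0521 to 0.151. Of 31 tested ATF4 targets, DDIT4 was higher and GARS1 lower, 6.45% called and near the 6.25% of all tested genes. The call of GARS1 (-0.56) was lost without DMSO replicate 1 (0.0524), DMSO replicate 3 (0.162), SEL120-34A replicate 1 (0.112), SEL120-34A replicate 2 (0.138) or SEL120-34A replicate 3 (0.121). None of 41 tested proteasome subunits passed the test.

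Of 23 tested genes of cholesterol synthesis, 4 were higher (17.4%, against 3.88% of all tested genes) and none lower, with a median of 0.29. IDI1 is given above, and HMGCS1 (0.65), LSS (0.73) and FDPS (0.47) encode further steps of the same pathway. The calls of HMGCS1, LSS and FDPS were each lost in the 4 fits without DMSO replicate 1, DMSO replicate 3, SEL120-34A replicate 1 or SEL120-34A replicate 2, which left IDI1 as the only call of the list. Of the promoters of the 4 higher genes, 3 held a CCAAT box and none held the SREBP element. Fatty acid genes gave 1 rise, ACSS2 (1.16), and 2 falls, FADS1 (-0.71) and ACSL3 (-0.83), of 13 tested. The shares were 7.69% higher and 15.4% lower, against 3.88% and 2.37% of all tested genes. Each of the 3 calls was lost without SEL120-34A replicate 2 (0.0968, 0.195 and 0.106) and without at least 2 other libraries.

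The lysosome list had 4 higher and 1 lower of 38 tested (10.5% and 2.63%, against 3.88% and 2.37% of all tested genes), with a median of 0.21. SMPDL3A, a secreted and lysosomal phosphodiesterase, was at 259, 191 and 209 CPM with DMSO and 420.1, 422 and 344 CPM with SEL120-34A (log2 fold change 0.85, adjusted p = 0.000474). It was the only call of the list that held with any 1 library left out, and the list had 1 call without DMSO replicate 3 and 1 without SEL120-34A replicate 2. Of 28 tested NRF2 and glutathione genes, 3 were higher (10.7%, against 3.88% of all tested genes) and none lower. FTH1, the ferritin heavy chain that stores iron, was at 521, 489 and 464 CPM with DMSO and 744, 1157 and 713 CPM with SEL120-34A (log2 fold change 0.81, adjusted p = 0.000630), and thioredoxin, TXN, was at 388, 394 and 391 CPM with DMSO and 588, 697 and 585 CPM with SEL120-34A (log2 fold change 0.66, adjusted p = 0.00169). TKT, transketolase, was also higher (log2 fold change 0.56, adjusted p = 0.00543), a call lost without SEL120-34A replicate 1 (0.0528). DDIT4 was the only call among 22 tested genes of glycolysis and hypoxia (4.55%, against 6.25% of all tested genes).

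Epithelial genes gave 5 rises and 2 falls of 24 tested (20.8% and 8.33%, against 3.88% and 2.37% of all tested genes). CD9, a tetraspanin of the cell surface, was at 327, 338 and 334 CPM with DMSO and 687, 934 and 672 CPM with SEL120-34A (log2 fold change 1.18 ± 0.14 SE, adjusted p = 5.27e-07). CLDN4, a tight junction claudin, was at 371, 251 and 288 CPM with DMSO and 750.1, 1010.0 and 525 CPM with SEL120-34A (log2 fold change 1.31 ± 0.17 SE, adjusted p = 3.04e-06). ELF3, an epithelial ETS factor, was at 179, 159.6 and 176 CPM with DMSO and 399, 341 and 256 CPM with SEL120-34A (log2 fold change 0.95, adjusted p = 0.000256). Together with RAB17, these 3 genes kept their calls with any 1 library left out. Claudins did not move as a family, as CLDN7 was lower (log2 fold change -0.61, adjusted p = 0.00960) and CLDN3 higher (log2 fold change 0.61, adjusted p = 0.0347). Scaling by library totals left CLDN3 without a call, and the calls of CLDN7 and CLDN3 were both lost without DMSO replicate 1, DMSO replicate 3, SEL120-34A replicate 1 or SEL120-34A replicate 3. ITGB5, an integrin subunit and 1 of the 2 calls among 9 tested mesenchymal and matrix genes, was at 187, 194 and 200.2 CPM with DMSO and 402, 408 and 382 CPM with SEL120-34A (log2 fold change 1.03, adjusted p = 1.03e-05). COL6A1, the other, was at 25.9, 27.7 and 23.7 CPM with DMSO and 39, 138 and 50.04 CPM with SEL120-34A, with SEL120-34A replicate 2 far above the rest (log2 fold change 1.43, adjusted p = 0.0174), and it lost its call without DMSO replicate 3 (0.0662) or SEL120-34A replicate 2 (0.301). ID2, which sequesters helix-loop-helix factors, was at 88.3, 55.3 and 65.8 CPM with DMSO and 138, 175 and 122 CPM with SEL120-34A (log2 fold change 1.04, adjusted p = 0.00334) and was 1 of 3 rises among 9 tested TGF-beta and BMP targets, with PMEPA1 and ID4 (0.64, arms overlapping, lost without DMSO replicate 1 (0.115), DMSO replicate 3 (0.196), SEL120-34A replicate 1 (0.244) or SEL120-34A replicate 2 (0.128)). Besides AQP3, the sodium pump subunits ATP1B1 (0.95) and ATP1B3 (0.46) were called among 5 tested aquaporin and ion transport genes, and leaving out DMSO replicate 3 or SEL120-34A replicate 1 lost both calls. No gene was called among 6 interferon-stimulated genes, 5 NF-kappaB targets or 7 Wnt targets tested, and CANX was the only call of 5 genes of MHC class I presentation. The shares called were 22.2% for the mesenchymal and matrix list, 33.3% for TGF-beta and BMP targets, 60% for aquaporins and ion transport and 20% for MHC class I. Over all tested genes 6.25% were called, and these lists held only 5 to 9 tested genes.

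Chromatin and splicing genes were lower where called. Of 34 tested genes of the HMG proteins, lamina and heterochromatin, 5 were lower (14.7%, against 2.37% of all tested genes) and none higher, with a median of -0.24. TMPO, a lamina-associated protein, was at 249.9, 370.2 and 194 CPM with DMSO and 150.0, 114 and 156 CPM with SEL120-34A (log2 fold change -0.90, adjusted p = 0.00579). SET, LMNB2 and HMGN2 had log2 fold changes of -0.57, -0.57 and -0.49, and leaving out SEL120-34A replicate 1 or replicate 2 lost all 3 calls. Of 52 tested splicing factors and hnRNPs, 9 were lower (17.3%, against 2.37% of all tested genes) and none higher, with a median of -0.20. HNRNPU, which binds nuclear RNA and chromatin, was at 437, 679 and 546 CPM with DMSO and 324, 133 and 353 CPM with SEL120-34A (log2 fold change -0.98, adjusted p = 0.00125), and HNRNPUL1 was at 138, 189 and 159 CPM with DMSO and 96, 42.7 and 71.9 CPM with SEL120-34A (log2 fold change -1.14, adjusted p = 0.00149). SEL120-34A replicate 2 was the lowest library for both. The other calls, among them SF3B3 (-1.07) and SRSF6 (-0.77), were lost in at least 1 fit with a library left out, and the list had 3 lower genes without SEL120-34A replicate 1 or 2. CCNH, the cyclin of the CDK-activating kinase in TFIIH and the only rise among 12 tested transcriptional kinases and elongation factors, was at 155, 97.9 and 136 CPM with DMSO and 363, 337 and 294 CPM with SEL120-34A (log2 fold change 1.35 ± 0.17 SE, adjusted p = 1.69e-06). ELL2, given above, was the only fall of that list. The shares were 8.33% higher and 8.33% lower, against 3.88% and 2.37% of all tested genes. Further large falls were those of the nucleoporin NUP133 (-1.50), the retrotransposon-derived PEG10 (-1.25) and RASSF3 (-1.16), with adjusted p-values of 0.00177, 0.000307 and 0.00228.

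**Figure D3:**
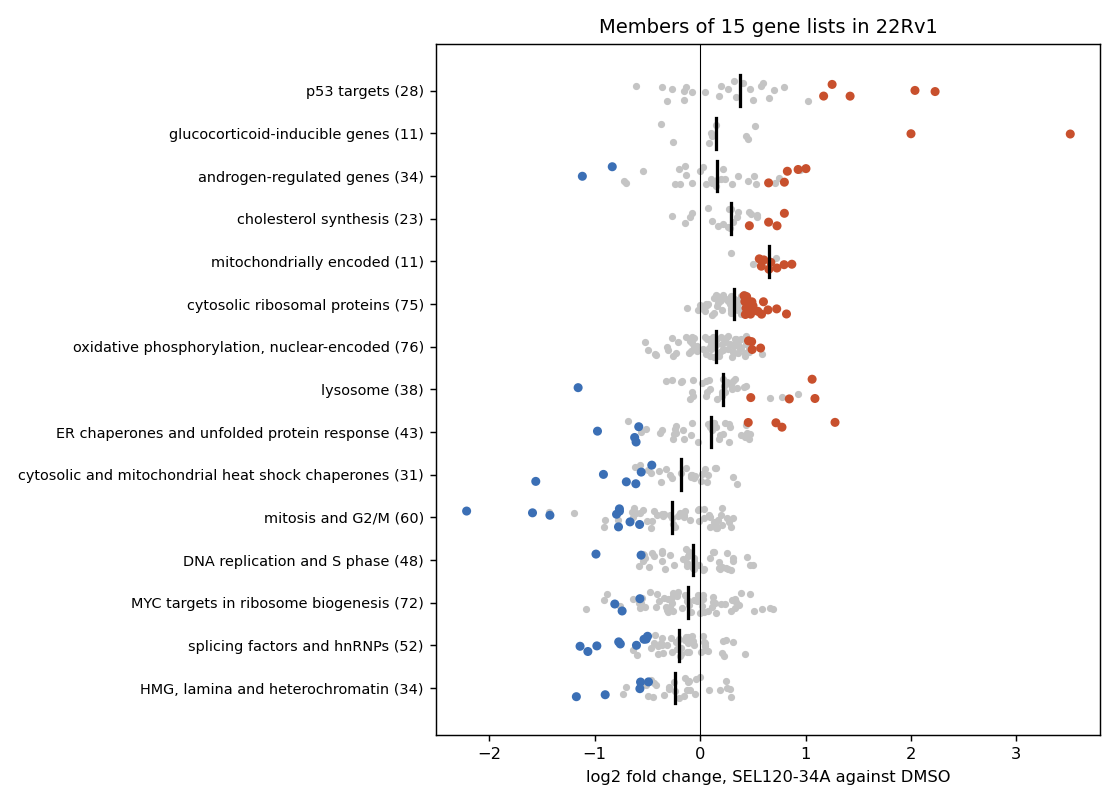
Log2 fold change (SEL120-34A over DMSO in 22Rv1, x axis) of the tested members of 15 gene lists (rows, number tested in brackets), as points, with members past the threshold in color and the list median as a black bar. The mitochondrially encoded genes (median 0.65, 8 higher) and cytosolic ribosomal proteins (0.32, 18 higher) lie on the positive side, and the mitosis and G2/M genes (-0.26, 9 lower) on the negative side.

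Cytosolic ribosomal protein genes were higher where called. Of 75 tested, 18 were higher and none lower (3.88% of all tested genes were higher), 72 had a positive and 3 a negative log2 fold change, and the median was 0.32. RPLP1, a protein of the ribosomal stalk, was at 1799, 1547 and 1592 CPM with DMSO and 2889, 3296 and 2539.6 CPM with SEL120-34A (log2 fold change 0.82 ± 0.13 SE, adjusted p = 8.46e-05). RPL23A was at 444, 336 and 377 CPM with DMSO and 558, 725 and 641 CPM with SEL120-34A (log2 fold change 0.73, adjusted p = 0.00117). These 2 genes kept their calls with any 1 library left out. When a library was omitted, 6, 9 and 3 calls remained for DMSO replicates 1, 2 and 3, and 4 and 5 calls for SEL120-34A replicates 1 and 2. Ribosomal protein genes have many processed pseudogenes, between which reads can be split, and 27 processed pseudogenes were higher and 1 lower of 222 tested. Over all tested genes, 3.88% were higher and 2.37% lower.

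Of the 11 tested mitochondrially encoded genes, 8 were higher (72.7%, against 3.88% of all tested genes) and none lower, all 11 had a positive log2 fold change, and the median was 0.65. MT-CYB, cytochrome b of complex III, was at 1325, 1502 and 1013 CPM with DMSO and 1998, 3196 and 1504 CPM with SEL120-34A (log2 fold change 0.80, adjusted p = 0.00443). MT-ND4, a subunit of complex I, was at 7152, 7787 and 6097 CPM with DMSO and 10429, 15454 and 8998 CPM with SEL120-34A (log2 fold change 0.73, adjusted p = 0.00537). For both, SEL120-34A replicate 2 was the highest library and DMSO replicate 3 the lowest. None of the 8 calls held in every fit with a library left out, and omitting DMSO replicate 3 left 1 call, omitting SEL120-34A replicate 1 left 4, and omitting SEL120-34A replicate 2 left 2. Among nuclear-encoded genes of oxidative phosphorylation, 4 were higher and none lower of 76 tested (5.26% higher, near the 3.88% of all tested genes), with a median of 0.15. COX5A, a subunit of complex IV, was at 1122, 1081 and 1109 CPM with DMSO and 1524, 1897 and 1526 CPM with SEL120-34A (log2 fold change 0.57, adjusted p = 0.00537) and was the call of that list that held with any 1 library left out.

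The fold changes in 22Rv1 were related to transcript length. Across the 5997 tested genes with a length, log2 fold change and log2 length of the canonical transcript had a correlation of -0.32, a description over genes that share the same 6 libraries. The shortest 600 genes (68 to 926 bases) had a median log2 fold change of 0.27 with 71 higher and 3 lower, and the longest 600 (6341 to 34626 bases) had -0.22 with 6 higher and 27 lower. Genes that rose had a median length of 1416.5 bases, genes that fell 3878.5 bases and all tested genes 2639 bases. In LNCaP the same correlation was 0.0054. Deviations from the mean of the 6 libraries correlated with length at 0.45 in DMSO replicate 2 and -0.28 in SEL120-34A replicate 2, the ends of the range. The median length was 887 bases in the ribosomal protein list, 956 bases in the mitochondrially encoded list and 783.5 bases in the oxidative phosphorylation list, and 3185.5 bases in the splicing list and 2811 bases in the G2/M list.

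After a trend with length and GC content was removed from each library, 214 genes were higher (3.57%) and 93 lower (1.55%), with 228 of the original 375 calls among them. The ribosomal protein list then had 13 higher genes and a median of 0.16, and the mitochondrially encoded list had 6 higher and 0.43. Oxidative phosphorylation turned from 4 higher and none lower to 2 higher and 3 lower. Splicing factors had 1 higher and 5 lower with a median of -0.15, and G2/M genes had 6 lower with -0.22. The p53 targets had 6 higher with a median of 0.33, cholesterol synthesis 4 higher with 0.31, and chaperones 6 lower with -0.20. Of these calls, 5, 3 and 5 were shared with the fit before removal, as FDPS and HSPA9 lost their calls and PERP, SQLE and HSPB1, named here after their values were seen, gained one. Of the 13 ribosomal protein calls, 7 were shared. Scaling by library totals left 8 ribosomal protein, 3 p53 and 1 cholesterol gene higher, gave 1 higher and 2 lower in oxidative phosphorylation, and raised the calls lower to 11 among chaperones and 12 among splicing factors. With both replicate 2 libraries left out, 181 genes were higher and 87 lower.

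**Figure D4:**
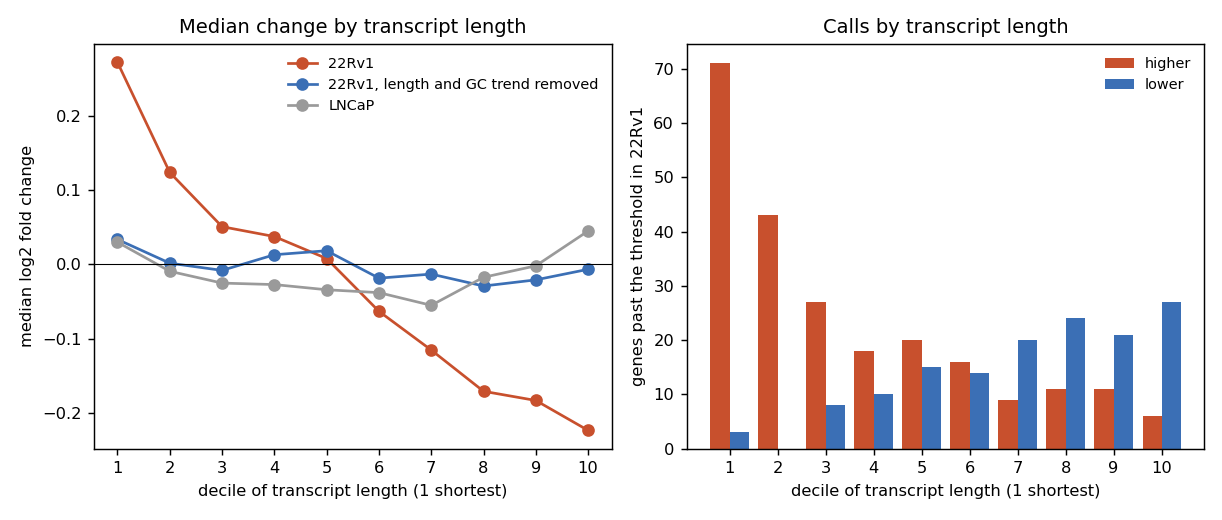
Median log2 fold change (SEL120-34A over DMSO) of the tested genes in 10 bins of transcript length (x axis, shortest first), in 22Rv1, in 22Rv1 after removal of the length and GC trend, and in LNCaP (left), and the number of called genes per bin in 22Rv1 (right). In 22Rv1 the medians run from 0.27 for the shortest genes to -0.22 for the longest, while after removal they are 0.03 and -0.0065 and in LNCaP 0.03 and 0.05.

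LNCaP, an androgen receptor-positive line with 3 libraries per arm, was used to ask where the response of 22Rv1 differed. In 1 model of the 12 libraries of both lines, 52 of 7086 genes differed in response (0.734%), with 811 at an unadjusted p under 0.05, and 31 of the 375 genes called in 22Rv1 were among them. Of the 375, 33 were also called in LNCaP (where 2.77% of genes were called), 32 of them in the same direction. The mitochondrially encoded list had similar medians, 0.65 in 22Rv1 and 0.57 in LNCaP, and G2/M genes had -0.26 and -0.52, while ribosomal proteins had 0.32 and 0.05.

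Among the genes described here, 21 differed in response between the lines, of which 18 were higher after SEL120-34A in 22Rv1 and 13 had opposite signs in the lines. All 21 were called in 22Rv1, and some were named for a small p of the difference, so these counts depend on that choice. Of the 13 with opposite signs, only ADRA2A was called in LNCaP. The others do not show a change in the opposite direction there. ADRA2A, an adrenergic receptor, was at 118, 129.8 and 113 CPM with DMSO and 66, 56.9 and 75.1 CPM with SEL120-34A in 22Rv1 (log2 fold change -0.84), whereas in LNCaP its log2 fold change was 2.83 (difference, LNCaP minus 22Rv1, 3.63 ± 0.31 SE, adjusted p = 1.33e-10). Its own call in 22Rv1 was lost without SEL120-34A replicate 1 (0.108) or SEL120-34A replicate 2 (0.0989). CD9 rose in 22Rv1 and had a log2 fold change of -0.14 in LNCaP (difference -1.36 ± 0.19 SE, adjusted p = 2.96e-05). These 2 differences held in all 21 alternative settings. AP3S1, an adaptor subunit of vesicle traffic, was at 389.9, 357 and 345 CPM with DMSO and 930.1, 1109.6 and 744 CPM with SEL120-34A, and TEX264, a receptor for autophagy of the ER, was at 389.9, 377 and 459.6 CPM with DMSO and 1002, 1034 and 785 CPM with SEL120-34A. Their log2 fold changes were 1.34 and 1.19 in 22Rv1 and -0.05 and 0.00064 in LNCaP, with differences of -1.43 (adjusted p = 0.00102) and -1.22 (adjusted p = 0.00177). ALDH3A2, a fatty aldehyde dehydrogenase, and DBI, which binds acyl-CoA, rose by 1.13 and 0.79 in 22Rv1 and had -0.29 and -0.21 in LNCaP. TSC22D3 had 3.51 in 22Rv1 and 0.76 in LNCaP (difference -2.77, adjusted p = 0.00693), a difference lost when LNCaP DMSO replicate 3, 22Rv1 DMSO replicate 3 or 22Rv1 SEL120-34A replicate 2 was left out (adjusted p up to 0.269 over all settings). BTG1 was called in both lines and rose more in 22Rv1 (1.89 against 0.83, difference -1.10, adjusted p = 0.00256). ALB, at -2.35 in 22Rv1 and -0.14 in LNCaP, was not past the threshold for the difference (adjusted p = 0.185).

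**Figure D5:**
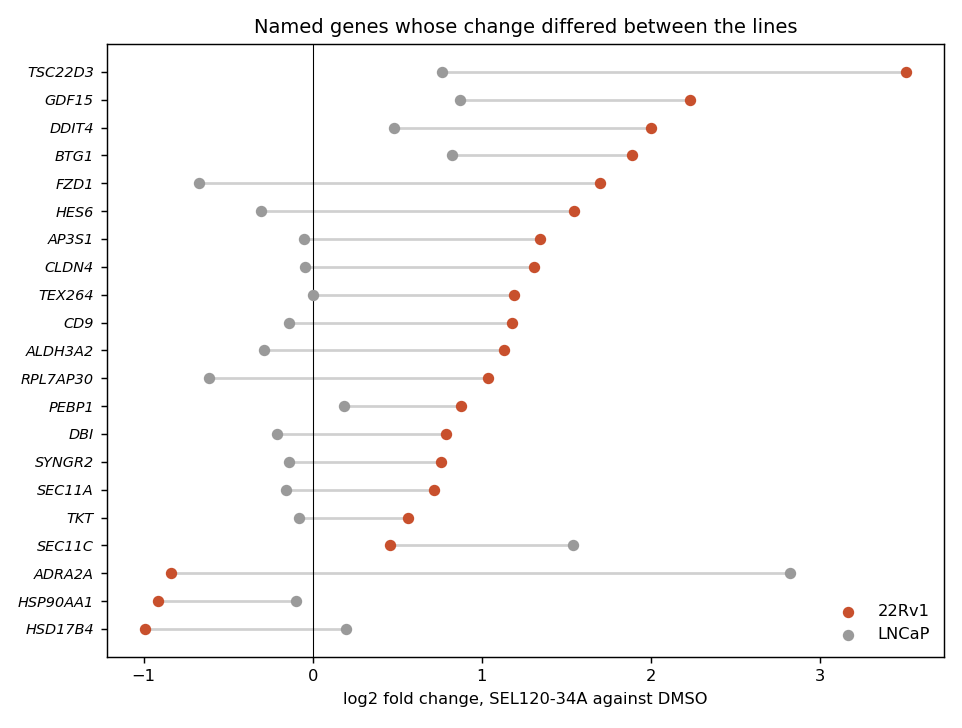
Log2 fold change (SEL120-34A against DMSO, x axis) in 22Rv1 and in LNCaP, joined by a line, for the 21 genes of the text (rows) whose response differed between the lines. ADRA2A has the longest line (-0.84 in 22Rv1, 2.83 in LNCaP), and TSC22D3 (3.51, 0.76) and CD9 (1.18, -0.14) lie further to the right in 22Rv1.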

How the data were processed

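The 6 22Rv1 libraries, and 6 LNCaP libraries used for the difference between the lines, were made by BRB-seq, in which pooled barcoded samples are sequenced at the 3′ ends of their transcripts, so counts do not scale with transcript length. According to the labels and methods, reads were aligned and counted by the authors with STARsolo (GRCh38.p13, GENCODE 43), and raw counts per gene were deposited. Collapsing of molecular identifiers was not stated, so floors cover counting error only. Deposited log2 CPM values, made by the authors for a filtered set of genes, served 1 alternative. PC3, with 1 library per arm, was not tested.

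Groups came from the labels. Genes kept by filterByExpr were tested in edgeR 4.0.16 (R 4.3.3) with TMM normalization and the quasi-likelihood F-test, with Benjamini-Hochberg adjustment over all tested genes and a threshold of 0.05. Residual degrees of freedom were 4, with a common biological coefficient of variation of 11.3%. Replicates differed by more than counting error (chi-square per degree of freedom 1.35 to 2.29). CPM are TMM-scaled counts relative to 1000000 counts in the tested genes. Log2 fold changes are SEL120-34A against DMSO, ± SE.

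The genes and lists were chosen with earlier results of these data known, so list counts and medians carry no test of their own. Named were the 15 largest rises and falls (symbol, mean of at least 20 counts, no overlap of arms), up to 6 called members of each list and all members of short lists, a panel of kinase module, androgen and p53 genes, the 10 most abundant called genes and the 10 called genes with the smallest p for the difference between the lines. Some of these are not reported here. Alternatives were other scalings and filters, thinning, DESeq2 1.42.0, limma 3.58.1 on the log2 values, a replicate block, a 12-library model and leaving out each library. Removal of a length and GC trend (loess, span 0.5) and leaving out both replicate 2 libraries were chosen after seeing the data. Coordinates and lengths are from GENCODE 44 on GRCh38, in which 62639 of the 62703 gene identifiers were found. Promoters are from RefSeq (GRCh38.p14). The statistics were tested on simulated data.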

Additional observations from a re-analysis of the deposited data

Results flagged for a closer look

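The responses of 21 genes of the text differed between LNCaP and 22Rv1 by the test of the difference itself (edgeR's quasi-likelihood test, 12 libraries, adjusted over 7086 genes, of which 52 passed). Differences are LNCaP minus 22Rv1 on the log2 scale. ADRA2A, at 3.63 (adjusted p = 1.33e-10), and CD9, at -1.36 (adjusted p = 2.96e-05), passed in all 21 alternative settings. AP3S1 (-1.43, adjusted p = 0.00102), DBI (-1.04, 0.00177), ALDH3A2 (-1.46, 0.00210), BTG1 (-1.10, 0.00256), the ribosomal protein pseudogene RPL7AP30 (-1.68, 0.00262), the signal peptidase subunit SEC11C (1.05, 0.00514) and SYNGR2 (-0.93, 0.00514) were lost in 1 setting, limma on the deposited log2 values, and TEX264 (-1.22, 0.00177) in that setting and after thinning. SEC11C was higher in both lines, by 0.46 in 22Rv1 and 1.54 in LNCaP.

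TSC22D3 (-2.77, adjusted p = 0.00693) was lost in 5 of 20 settings, among them the fits without LNCaP DMSO replicate 3, 22Rv1 DMSO replicate 3 or 22Rv1 SEL120-34A replicate 2. CLDN4 (-1.39, 0.0129) was lost in 7 of 21 settings, SEC11A (-0.91, 0.0264) in 8 of 21, HES6 (-1.88, 0.0265) in 8 of 19 and FZD1 (-2.41, 0.0336) in 10 of 19. Nearest the threshold were GDF15 (-1.39, 0.0399), PEBP1 (-0.72, 0.0423), HSP90AA1 (0.78, 0.0461), TKT (-0.68, 0.0461), DDIT4 (-1.55, 0.0494) and HSD17B4 (1.16, 0.0499). Each of these 6 was lost in 12 to 16 of 21 settings, and all 6 were lost without 22Rv1 SEL120-34A replicate 2 and without 22Rv1 DMSO replicate 2. Opposite signs in the lines, as for FZD1 (1.70 in 22Rv1, -0.67 in LNCaP), do not show a fall in LNCaP, where FZD1 was not called.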

How the results depend on the processing

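The total of 375 calls in 22Rv1 became 229 after thinning to the smallest library, 163 with DESeq2, 27 with limma on the deposited log2 values, 147 at an adjusted p of 0.01 and 128 when a log2 change of 1 or more was also required. Leaving out 1 library gave 154 to 345 calls. The 233 higher genes became 129 with library totals, 137 after thinning, 127 with DESeq2, 19 with limma, 109 at 0.01, 79 with the fold limit and 108 to 230 without a library. The 142 lower genes became 92, 36, 8, 38 and 49 after thinning, with DESeq2, with limma, at 0.01 and with the fold limit, 93 with the length and GC trend removed, 87 without both replicate 2 libraries and 46 to 127 without a library. The 52 differences between the lines became 29 in genes with 10 or more counts throughout, 22 after thinning, 5 with limma, 18 at 0.01 and 24 to 57 without a library. The lowest counts came without LNCaP SEL120-34A replicate 1 (24) or 2 (27) and without 22Rv1 SEL120-34A replicate 2 (26), replicate 1 (32) or DMSO replicate 3 (34). The cause of these changes was not tested. There were 363 calls with DESeq2 size factors in edgeR, 307 in genes with 10 or more counts throughout, 279 without a filter, 384 with mitochondrial genes removed and 404 in the 12-library model, of which 336 were shared. Of 130 called genes described, 14 kept the call in all alternatives, 44 lost it with limma only, and none changed sign. CCNC, not called, was -0.088 with library totals, -0.012 without a filter, -0.040 with 10 or more counts, -0.073 after thinning, -0.047 without both replicate 2 libraries and -0.15 to 0.21 without a library. The replicate number as a block gave 361 calls in 22Rv1 and 77 differences between the lines. Deviations of same-numbered libraries had correlations of 0.054, -0.010 and 0.136 over 1643 genes, and those of differently numbered libraries ran from -0.169 to 0.107. The value for replicate 3 was thus the highest, and all were small. The numbers were not taken as a pairing. Depth limits CDK8, MED12, MED13, KLK3 and TMPRSS2, at 1 to 20 counts.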

Other observations

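Among the most abundant called genes outside the lists, PEBP1, a kinase inhibitor protein, was at 2318, 2066 and 2266 CPM with DMSO and 3985, 4969 and 3278 CPM with SEL120-34A (log2 fold change 0.88, adjusted p = 8.46e-05), and TMSB10, which binds actin monomers, was at 3199, 3006 and 2935 CPM with DMSO and 4084, 4818 and 3853 CPM with SEL120-34A (log2 fold change 0.48, adjusted p = 0.0280). The call of TMSB10 was lost without DMSO replicate 1 (0.0568), DMSO replicate 3 (0.137), SEL120-34A replicate 1 (0.102) or SEL120-34A replicate 2 (0.0849), in parentheses the adjusted p. The processed pseudogene RPS3AP6, which shares sequence with RPS3A, was at 3526, 3544 and 3713 CPM with DMSO and 5233, 6458 and 4741 CPM with SEL120-34A (log2 fold change 0.61, adjusted p = 0.00599). Of 76 tested long noncoding RNAs, 10 were higher and 1 lower, where 3.88% of all tested genes were higher and 2.37% lower. GADD45G, a stress-induced growth arrest gene named after its values were seen, had 3, 4 and 6 counts with DMSO and 21, 12 and 9 counts with SEL120-34A (log2 fold change 2.62, adjusted p = 0.000154).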
